A study of Mus musculus with 2 samples.

Results

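Genes of macrophages and of antigen presentation were followed in heart RNA of 2 mice. The 31 genes were chosen by their symbols, out of 55536 annotated genes. They comprise 3 genes of class I molecules, 3 genes that load them with peptide, 5 genes of the class II pathway, and 20 genes of macrophages and of receptors that macrophages carry. The animals were adult females of the strain B6CASTF1/J, the first-generation hybrid of C57BL/6J and CAST/EiJ mice, aged 8 to 10 months and with no treatment given in the labels. Both belong to 1 group and each gave 1 total RNA library. Replicate 1 is the animal numbered 1 and replicate 2 the animal numbered 3. The labels give the same donor identifier for both, so that n = 2 animals rests on those numbers. The depth of the alignment-derived tables was 42223411 expected counts in replicate 1 against 40553237 in replicate 2. The smallest two-sided p of an exact sign-flip test over 2 animals is 0.5, and values are given without a test. The reads were assigned to mm10, which is the genome of the C57BL/6J parent, and the animals also carry CAST/EiJ alleles. The class I and class II genes are among the most variable of the mouse genome, and the effect of the CAST/EiJ alleles on their values was not tested.

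Class I molecules stand on the surface of nearly every nucleated cell. Each is a heavy chain, in the mouse encoded by H2-K1 and H2-D1, paired with the light chain beta-2 microglobulin (B2m). Proteasomes cut proteins of the cell into peptides, the pump of Tap1 and Tap2 carries these into the endoplasmic reticulum, and tapasin (Tapbp) holds the heavy chain there until a peptide is bound. Class II molecules are made mainly by macrophages, dendritic cells and B cells. Their alpha and beta chains (H2-Aa with H2-Ab1, and the E beta chain H2-Eb1) assemble on the invariant chain Cd74, which the protease cathepsin S (Ctss) later cuts away to make room for peptides of engulfed proteins. The healthy heart holds resident macrophages, many of them seeded before birth, which clear dying cells and cell debris, and a smaller population that is renewed from blood monocytes.

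The DNA just upstream of 4 of these genes is shown because class I and class II promoters are known for short boxes that the genes share. Class II promoters carry an X box and a Y box, and the Y box holds the letters CCAAT, read as ATTGG on the other strand. Class I promoters also carry a site for NF-kB. The sequences are the 200 bases before the RefSeq start site in GRCm38.p6, the assembly also called mm10. They run 5′ to 3′ on the strand of the gene. Capitals mark matches to CCAAT, to the X box core AGCAAC, to the NF-kB letters GGGATTCCC, to GAGGAAGT, a form of the PU.1 site, or to the interferon-response letters TTTCACTTC, each on either strand. The last were added after the H2-K1 sequence had been seen.
H2-K1 chr17:34000348-34000547, minus strand: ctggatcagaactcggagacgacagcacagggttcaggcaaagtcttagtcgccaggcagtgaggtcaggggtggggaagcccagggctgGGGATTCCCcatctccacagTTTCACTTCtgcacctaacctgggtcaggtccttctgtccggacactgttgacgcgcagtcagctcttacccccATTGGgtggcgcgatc
B2m chr2:122147487-122147686, plus strand: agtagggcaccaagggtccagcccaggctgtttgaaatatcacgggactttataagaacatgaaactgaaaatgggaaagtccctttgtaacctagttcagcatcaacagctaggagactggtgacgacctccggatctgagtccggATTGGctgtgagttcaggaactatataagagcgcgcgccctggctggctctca
H2-Eb1 chr17:34305667-34305866, plus strand: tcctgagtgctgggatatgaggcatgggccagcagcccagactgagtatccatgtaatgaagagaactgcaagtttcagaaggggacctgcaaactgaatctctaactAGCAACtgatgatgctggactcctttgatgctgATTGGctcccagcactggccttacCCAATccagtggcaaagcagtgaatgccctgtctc
H2-Aa chr17:34287824-34288023, minus strand: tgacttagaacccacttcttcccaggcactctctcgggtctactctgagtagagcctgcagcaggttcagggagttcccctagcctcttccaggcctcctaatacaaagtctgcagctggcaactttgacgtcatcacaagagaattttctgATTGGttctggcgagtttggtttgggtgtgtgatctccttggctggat

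Matches were counted in the 250 bases upstream of each start, in 32851 RefSeq records, and 23 of the 31 genes were in that table. The percentages are of records, while a gene was counted if any of its records held the letters. These shares are therefore not on the same basis. CCAAT occurred in 33.9% of all records and in 14 of the 23 genes. AGCAAC occurred in 12.2% of records and in 3 genes, H2-Eb1, Cd163 and Cd68. GAGGAAGT was present in 2.44% of records and in C1qc alone among the 23. GGGATTCCC was rare, in 0.301% of records, and was present upstream of H2-K1 and H2-D1. TTTCACTTC, in 0.402% of records, lay upstream of H2-K1, H2-D1, Folr2 and Timd4. The 200 bases upstream of H2-K1 and of H2-D1 are alike in part. Outside the gaps of their alignment, 128 of 140 bases (91.4%) were identical, so their shared matches are not independent. The H2-D1 stretch is not printed because in GENCODE M21 it lies inside the transcribed 5′ end of the gene. None of these matches is a measured binding site.

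Summed over all their transcripts, the 3 class I genes had the highest levels of the 31. Levels are in TPM, transcripts per 1000000, in which a gene's reads are divided by transcript length, so that genes can be compared within a library. Across the 11590 genes that reached 1 TPM in both animals, the median gene had 8.20 TPM in replicate 1 against 7.22 in replicate 2. B2m (ENSMUSG00000060802.8, mm10, chromosome 2, 122147686 to 122153083, plus strand) stood at 85.0 TPM in the first animal and 96.6 TPM in the second, a mean of 90.8 ± 8.20 (SD, n = 2). It was the highest of the 31 and rank 654 among the 11590 genes. H2-K1 (chromosome 17, 33996017 to 34000347, minus strand) had 49.1 and 61.9 TPM, and H2-D1 (chromosome 17, 35262730 to 35267499, plus strand) 45.7 and 50.2 TPM. The light chain stood at 0.90 and 0.86 times the sum of both heavy chains. H2-K1 stood at 1.08 and 1.23 times H2-D1. That order depended on which transcripts were counted: with only those annotated as protein coding, H2-K1 stood at 0.52 and 0.63 times H2-D1, and B2m at 1.30 and 1.35 times their sum. On coding transcripts H2-K1 had 22.3 and 27.7 TPM, below Tapbp and Cd74 in both animals and below Lyz2 in replicate 1.

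The genes of peptide loading were uneven. Tapbp, the tapasin gene (chromosome 17, 33915899 to 33929292), had 36.6 and 39.5 TPM. Tap2 had 9.29 and 8.49 TPM, and its partner Tap1 1.62 and 2.54 TPM, on 144 and 198 expected counts. The pump is made of 1 chain of each. Over all transcripts Tap2 exceeded Tap1 5.73-fold in replicate 1 and 3.34-fold in replicate 2, but most Tap2 TPM lay on a transcript with a retained intron, and over coding transcripts alone the ratios were 1.31 and 1.12. In the FASTQ-derived table, quantified from the reads without the alignments, the ratios were 6.65 and 3.83 over all transcripts and 4.34 and 2.91 over coding ones, so that the gap between the chains depended on the table and on the transcripts counted.

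All 5 class II pathway genes were expressed, that is, had 1 TPM or more in both animals. The invariant chain Cd74 (chromosome 18, 60803848 to 60812652, plus strand) led with 28.5 and 27.8 TPM. The A alpha chain H2-Aa (chromosome 17, 34282744 to 34287823, minus strand) had 10.2 and 11.8 TPM, the E beta chain H2-Eb1 (chromosome 17, 34305867 to 34316674, plus strand) 10.1 and 11.9 TPM, and the A beta chain H2-Ab1 7.01 and 7.24 TPM. Cd74 thus stood at 2.80 and 2.36 times H2-Aa, and H2-Aa at 1.45 and 1.63 times its partner H2-Ab1. Ctss was lower, at 3.17 and 3.01 TPM.

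The E beta chain needs an E alpha chain to reach the cell surface. C57BL/6 mice are known to lack that chain through a deletion in its gene, which the annotation lists as H2-Ea-ps. H2-Ea-ps nevertheless had 3.57 and 4.82 TPM in these hybrid hearts, on 105 and 149 expected counts. Its transcript H2-Ea-ps-202 held 87.6% ± 7.49 of its TPM (SD, n = 2). From which parental allele these reads came was not analysed.

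**Figure D1:**
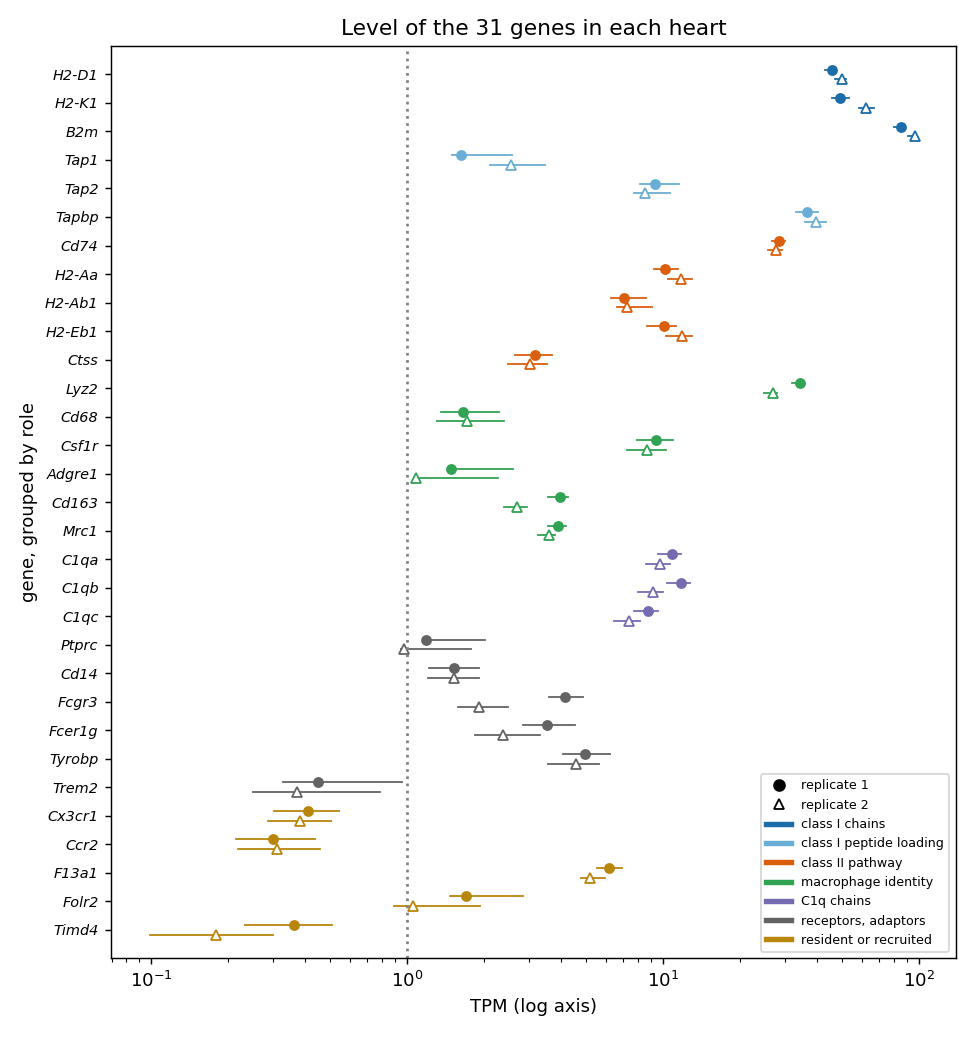
TPM (log axis) of each of the 31 genes in replicate 1 (filled circles) and replicate 2 (open triangles), coloured by role. Horizontal lines are the credibility intervals in the deposited gene tables, for which the sources used here state no level and which belong to the posterior mean rather than to the plotted TPM. The dotted line marks 1 TPM. B2m, H2-K1, H2-D1 and Tapbp lie to the right, and Trem2, Cx3cr1, Ccr2 and Timd4 lie below 1 TPM in both animals.

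The 20 macrophage and receptor genes had a lower median, 2.92 ± 1.11 TPM (SD, n = 2), than the class I chains and the class II pathway. The groups overlapped: Lyz2 and the C1q chains stood above H2-Ab1 and Ctss in both animals. These are levels in RNA of whole heart, in which fewer cells of a type and less RNA per cell cannot be told apart. All 6 genes of macrophage identity passed 1 TPM in both animals. Lyz2, the lysozyme of macrophages and neutrophils (chromosome 10, 117277331 to 117282321, minus strand), had 34.4 and 26.9 TPM. Csf1r, the receptor for the survival factors Csf1 and Il34, had 9.38 and 8.63 TPM. The scavenger receptors Cd163, for haemoglobin bound to haptoglobin, and Mrc1, for mannose-bearing glycoproteins, had 3.97 and 2.70 TPM and 3.90 and 3.57 TPM. The lysosomal membrane protein Cd68 and the F4/80 antigen Adgre1 were near the threshold, at 1.65 and 1.71 TPM and at 1.48 and 1.08 TPM.

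The 3 chains of C1q, the protein that starts the classical complement pathway, are encoded next to each other on chromosome 4, from 136880129 to 136898803 on the minus strand. C1qa had 10.9 and 9.76 TPM, C1qb 11.8 and 9.17 TPM, and C1qc 8.70 and 7.39 TPM. The assembled protein holds equal numbers of each chain. The RNA levels lay close to each other: C1qa stood at 0.92 and 1.06 times C1qb, so that their order changed between the animals, and C1qc at 0.74 and 0.81 times C1qb.

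Among receptors and adaptors, 4 of 6 were expressed. Tyrobp, an adaptor that passes on activating signals, had 4.96 and 4.58 TPM. The antibody receptor Fcgr3 (chromosome 1, 171051174 to 171064935, minus strand) had 4.15 and 1.91 TPM, and its signalling gamma chain Fcer1g 3.52 and 2.36 TPM. Cd14, which hands lipopolysaccharide to Tlr4, had 1.52 TPM in each animal. Ptprc, the CD45 phosphatase of all leukocytes, missed the threshold in replicate 2, with 1.19 and 0.97 TPM. Trem2, a receptor for lipids that signals through Tyrobp, had 0.45 and 0.37 TPM.

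Genes found in resident or in recruited macrophages of the mouse heart, or in both, were unequal. F13a1, a transglutaminase chain found in resident macrophages and monocytes, had 6.14 and 5.17 TPM, and the folate receptor Folr2, of resident macrophages, 1.70 and 1.05 TPM. The remaining 3 were under 1 TPM in both animals. Ccr2, the chemokine receptor of recruited cells, had 0.30 and 0.31 TPM, the fractalkine receptor Cx3cr1 0.41 and 0.38 TPM, and Timd4, a receptor for dying cells on long-lived resident macrophages, 0.36 and 0.18 TPM. Timd4 rested on 25 and 13 counts. Folr2 stood at 5.67 and 3.39 times Ccr2, and Mrc1 at 13 and 11.5 times Ccr2. No share of cells follows from these ratios.

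Of the 31 genes 26 were expressed, against 48.7% of protein-coding genes and 20.9% of all genes. The genes were chosen by name with earlier results of these data known, so the count describes the choice. Their median level was 4.77 ± 0.27 TPM (SD, n = 2). By role, the median was 55.5 ± 9.01 TPM for the 3 class I chains, 10.9 ± 1.20 for the class II pathway, 10.0 ± 1.19 for the C1q chains, 3.54 ± 0.57 for macrophage identity and 2.12 ± 0.57 for receptors and adaptors. Protein-coding genes near 1 TPM rested in the median on 75.0 counts in the first library and 76.8 in the second. Counting error is thus small for the class I genes and larger near the threshold.

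The label was set against markers of other leukocytes. Of 33 such markers 1 was expressed, Zbtb46, a transcription factor of dendritic cells that endothelial cells also express, at 4.13 and 3.07 TPM. The summed level of the 33 was 8.46 and 8.26 TPM, against 111 and 89.7 TPM for the 20 macrophage and receptor genes. B cell markers (among them Cd79a, Cd79b, Ms4a1 and Pax5) were led by Pax5 at 0.39 TPM in the mean. T cell markers (Cd3d, Cd3e, Cd3g, Cd4, Cd8a, Cd8b1) were led by Cd4 at 0.18, and natural killer cell markers (Ncr1, Nkg7, Klrd1, Gzma, Prf1) by Nkg7 at 0.19 TPM. Neutrophil markers (S100a8, S100a9, Ly6g, Retnlg, Mpo, Cxcr2) were led by S100a8 at 0.66 TPM. The other dendritic cell markers (Flt3, Xcr1, Clec9a, Itgax, Cd209a) and the mast cell markers (Cpa3, Mcpt4, Cma1, Tpsb2, Ms4a2) were led by Cd209a at 0.20 and Mcpt4 at 0.31 TPM. Klrd1 and Mpo had no counts in either animal, where the limit of 3 counts corresponds to 0.0711 and 0.0740 per 1000000 counts. Class I genes and B2m are made by most cells, and which heart cells made them was not measured.

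Several antigen presentation genes carried much of their TPM on transcripts that are not annotated as protein coding. For H2-K1 the highest transcript in the mean of both animals was H2-K1-215, annotated as a retained intron, with 457 bases in 2 exons near the 3′ end of the gene (chromosome 17, 33996106 to 33996674). By the alignment-derived table it held 50.0% ± 0.42 of H2-K1 TPM, by the FASTQ-derived one 35.0% ± 0.57. The coding transcript H2-K1-205 held 30.0% ± 1.60 and 34.2% ± 2.41, and in the FASTQ-derived table of replicate 1 it was the higher, at 35.9% against 34.6%. Counts, which are not divided by length, gave another picture: coding transcripts held 75.7% and 75.5% of H2-K1 expected counts in replicates 1 and 2, and 45.4% and 44.7% of its TPM. H2-D1 differed, with 86.2% ± 3.64 of TPM on the coding transcript H2-D1-202.

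For Tap2 the highest transcript was Tap2-202, which retains an intron of 162 bases. Its share of TPM was 78.1% ± 1.30 by alignment and 52.6% ± 2.16 by the FASTQ-derived table, where the full-length coding transcript Tap2-201 held 14.0% ± 7.20. For H2-Eb1 both tables put most TPM on H2-Eb1-205, annotated for nonsense-mediated decay, at 60.1% ± 13.3 and 77.3% ± 1.29. In that transcript exon 2 starts 53 bases later than the 270-base exon 2 of the coding transcript H2-Eb1-203, which held 10.1% ± 8.14 and 11.7% ± 2.87. Exon 2 encodes most of the peptide-binding domain and is the most variable part of class II genes between strains. The main transcript of the other class II chains was protein coding, with 87.9% ± 14.4 of H2-Aa TPM on H2-Aa-201 and 70.6% ± 6.99 of H2-Ab1 TPM on H2-Ab1-201.

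Cd74 makes both its known forms of the invariant chain. Cd74-201 held 62.0% ± 0.75 of TPM and Cd74-202 38.0% ± 0.75. The latter has an additional exon of 192 bases (chromosome 18, 60811294 to 60811485), which encodes the thyroglobulin-like domain of the long form. The FASTQ-derived table gave 59.1% ± 0.03 and 40.9% ± 0.03. The split was thus the same to within a few percent in both animals and in both tables.

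**Figure D2:**
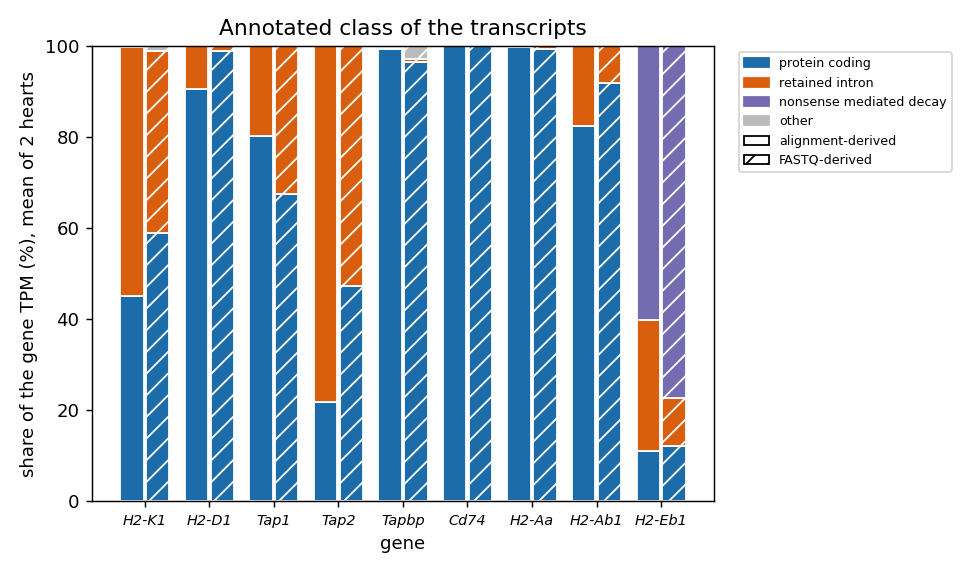
Share of each gene's TPM, as the mean of the 2 hearts in percent, on transcripts annotated as protein coding, retained intron, nonsense-mediated decay or other, for 9 antigen presentation genes. Plain bars are the alignment-derived and hatched bars the FASTQ-derived transcript table. H2-K1 and Tap2 carry large retained-intron shares and H2-Eb1 a large share on a transcript annotated for decay, while Cd74 and H2-Aa are almost all protein coding.

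Of 22 expressed genes with more than 1 transcript, 18 had the same main transcript in both tables. The exceptions were Tapbp, Ctss, Fcgr3 and Tyrobp. The 2 annotated Ctss transcripts have the same length of 1355 bases: the first table gave all TPM to Ctss-202 and the second an equal split. Tyrobp was assigned entirely to Tyrobp-202 in replicate 1 and to Tyrobp-201 in replicate 2 of the alignment-derived table, and to Tyrobp-201 in replicate 1 of the other. For Fcgr3 the coding Fcgr3-201 led the first table with 69.3% ± 9.38 and the retained-intron Fcgr3-203 led the second with 73.3% ± 16.2. Shares of these 4 genes are therefore not firm, although the gene totals of Ctss, Fcgr3 and Tyrobp were close between the tables.

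Summed to genes, the tables gave similar levels. Of 27 genes compared, 0 differed 2-fold or more in both animals, against 3.79% of 11983 genes, and 25 lay within 1.5-fold in both. The exceptions were Tapbp, at 36.6 and 39.5 TPM against 27.3 and 25.4 TPM in the FASTQ-derived table, and Ptprc, at 1.19 and 0.97 against 1.30 and 1.55 TPM. Some reads cannot tell a gene from its relatives. Of the 31-base words in the transcripts of Lyz2, 32.8% also occur in Lyz1, its near-identical neighbour gene. H2-D1 and H2-K1 share 26.7% and 22.8% of their words with other genes, above all with each other and with class I genes of the Q region. Fcgr3 shares 13.4%, all with Fcgr2b, the inhibitory antibody receptor. Among the rest, 13 genes shared up to 10% and 14 shared none, among them B2m, all C1q chains, Mrc1 and Cd68. The values of Lyz2, H2-K1, H2-D1 and Fcgr3 are therefore less certain. By how much was not measured, as a share of words is not an error in TPM.

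The animals differed little in single genes. Differences are log2 ratios of replicate 2 over replicate 1 on TPM + 0.1, centred on the median of the 11876 genes with enough reads, since without centring that median was -0.18. Of the 27 genes compared, 0 were 2-fold apart, against 1.41% of the 11876 genes. The credibility intervals of 6 did not overlap between the animals, against 28% of all compared genes. Of the 6, H2-K1 and B2m were higher in replicate 2, and Lyz2, Cd163, C1qb and Fcgr3 were lower. A higher centred value in replicate 2 was found for 17 genes and a lower one for 10, against 50% of all genes in each direction. At 1.5-fold 2 genes were apart, Fcgr3 and Tap1, against 5.78% of all compared genes. These are differences between 2 libraries and have no replicate check.

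By role, the antigen presentation genes lay on the side of replicate 2, and the macrophage genes lay on both sides. All 11 antigen presentation genes had a centred ratio above 0, with a median of 0.32. Of these, 8 were higher in replicate 2 under all 4 scalings, against 17.8% of all compared genes. The other scalings were TPM without centring, counts scaled to depth and the FASTQ-derived table, the latter 2 also centred. The exceptions were Tap2, Cd74 and Ctss, which were lower without centring, Tap2 in the FASTQ-derived table as well. Among the 8, Tapbp owed its place to centring. As an uncentred share of all counts it was flat, at a ratio of 1.00, and its FASTQ-derived level fell from 27.3 to 25.4 TPM. The rest of the 8 were higher on both of these uncentred measures. These ratios are over all transcripts. On coding transcripts of the alignment-derived table H2-Eb1 was lower in replicate 2, at 1.81 and 0.52 TPM, and the others of the 8 were higher. Of the 16 macrophage and receptor genes compared, 10 were lower in replicate 2, with a median of -0.07, and 8 of these were lower under all 4 scalings: Lyz2, Adgre1, Cd163, C1qb, C1qc, Fcgr3, Fcer1g and Folr2. Of all compared genes 36.5% were lower under all 4, and 79.3% were lower without centring, so that the uncentred scaling adds little to a lower centred value. Cd68 was higher under all 4. Without centring the medians were 0.14 and -0.26. Summed, the 11 genes had 286 and 321 TPM, and the 20 macrophage and receptor genes 111 and 89.7 TPM. The 33 markers of other leukocytes summed to 8.46 and 8.26 TPM. The part of cell numbers in these differences was not tested.

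Fcgr3 was farthest apart. Its 4.15 and 1.91 TPM rested on 172 and 80.4 counts, and its intervals, 3.59 to 4.85 and 1.58 to 2.48 TPM, did not overlap. The centred log2 ratio was -0.90, that of the FASTQ-derived table -0.88, and without centring it was -1.08, which is past 2-fold. On coding transcripts Fcgr3 had 2.86 and 1.91 TPM in the alignment-derived table. In the FASTQ-derived table the retained-intron Fcgr3-203 had 3.33 and 1.16 TPM, and coding transcripts held 15.2% and 38.1% of the gene's TPM. As a share of all counts, without centring, Fcgr3 in replicate 2 stood at 0.48 times replicate 1. The exact 95% interval of 0.37 to 0.63 covers counting error only. Fcer1g, the partner of Fcgr3, was at -0.37, on 68.0 and 46.0 counts. The related receptor Fcgr2b, at 1.93 ± 0.28 TPM, was at -0.10. Tap1 was farthest in the other direction, at 0.80, on 144 and 198 counts, though its intervals overlapped. By counts scaled to depth Tap1 was at 0.64, and in the FASTQ-derived table at 0.61, both centred. As a share of all counts, without centring, Tap1 in replicate 2 stood at 1.43 times replicate 1. On coding transcripts it had 1.49 and 1.73 TPM. H2-K1 was at 0.52, with intervals of 45.8 to 53.5 and 58.2 to 66.7 TPM. Folr2, at -0.46, was at -0.03 in the FASTQ-derived table, so that its difference depended on the table.

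**Figure D3:**
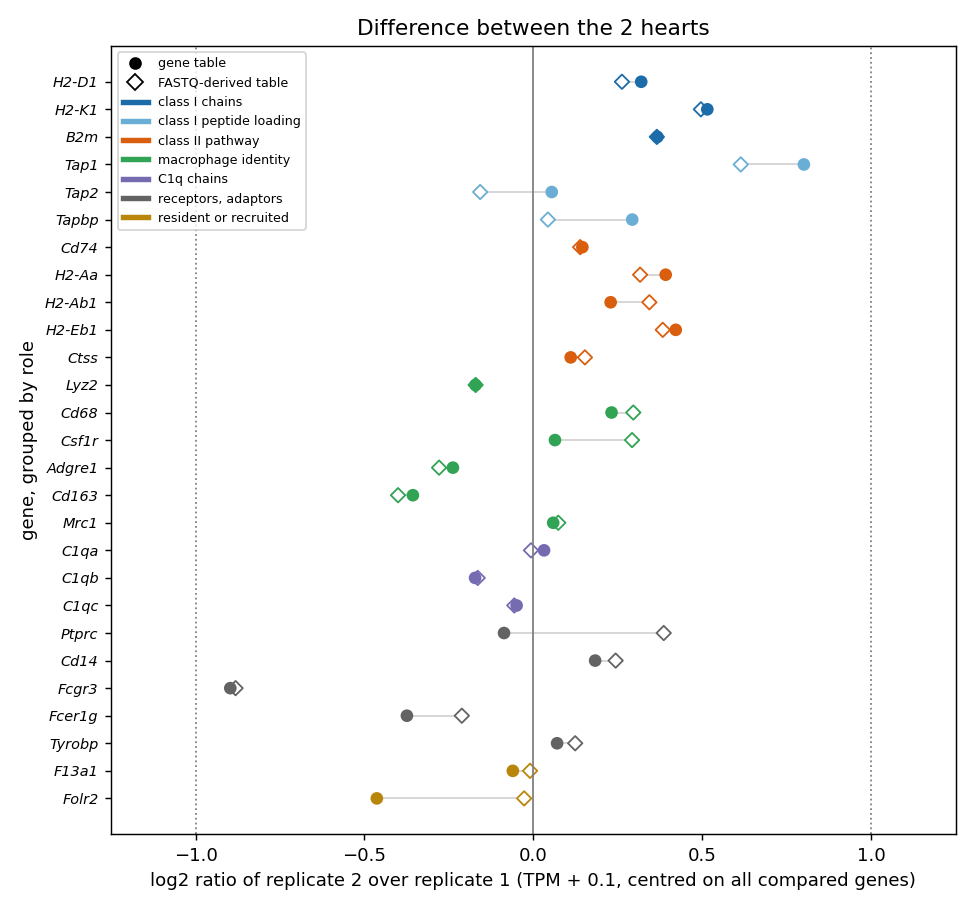
Centred log2 ratio of replicate 2 over replicate 1 for the 27 genes compared, from the gene table (filled) and the FASTQ-derived table (open), coloured by role. Dotted lines mark a 2-fold difference. The 11 antigen presentation genes lie right of 0 in the gene table, Fcgr3 lies farthest left at -0.90 and Tap1 farthest right at 0.80.

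The genes around the 31 were described by lists, chosen with earlier results of these data known. Of 112 genes on 9 lists, 68 were expressed. Among 17 other class I genes 10 were expressed, led by Fcgrt, which carries antibodies and albumin through cells, at 24.9 and 20.4 TPM, the iron regulator Hfe at 21.4 and 18.1 TPM, and H2-T23, a ligand of natural killer cell receptors, at 9.85 and 10.8 TPM. Of the 10 compared, 7 were higher in replicate 2, against 50% of all compared genes, and the median was 0.32. Under all 4 scalings 6 of the 10 were higher, against 17.8% of all compared genes. H2-Q6, at 1.40 and 2.87 TPM, and H2-Q7, at 1.17 and 2.16 TPM, passed 2-fold, with log2 ratios of 1.17 and 1.01. Both are Q region genes. H2-Q7 shares words with H2-K1 and H2-D1, so its value is uncertain. For H2-Q6 shared words were not listed, and its value is not taken as more certain. Without centring both were under 2-fold, at 0.99 and 0.83.

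All 10 genes that make or handle class I peptides were expressed. The highest were the chaperones Calr, at 126.3 and 126.3 TPM, and Canx, at 132 and 119 TPM, and the proteasome activator subunit Psme1, at 109 and 104 TPM. The list's median log2 ratio was 0.14, or -0.04 without centring. The catalytic subunits of the immunoproteasome, named after their values had been seen, were higher in replicate 2: Psmb8 with 4.58 and 7.21 TPM, Psmb9 with 2.55 and 3.32 TPM, and Psmb10 with 20.1 and 26.4 TPM. All 3 kept that direction without centring, at 0.64, 0.37 and 0.39. The intervals of Psmb9 overlapped, those of Psmb8 and Psmb10 did not. On coding transcripts Psmb9 was lower in replicate 2, at 2.11 and 1.89 TPM, while Psmb8 and Psmb10 were higher. Another 3 of the list's 10 genes were lower under all 4 scalings, against 36.5% of all compared genes. They were the chaperone Pdia3, the peptide trimmer Erap1 and the tapasin relative Tapbpl. Pdia3 had 47.3 and 32.2 TPM and a centred ratio of -0.37.

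Of 9 regulators of class I and class II genes 7 were expressed, led by Nfyc, a subunit of the factor that binds CCAAT, at 19.3 and 18.9 TPM. Creb1 and Rfxap, which take part in the complex on class II promoters, had 11.5 and 7.37 TPM and 8.30 and 7.40 TPM. Nlrc5, the coactivator of class I genes, had 0.80 and 1.51 TPM, a centred log2 ratio of 1.02, or 0.84 without centring. The centred ratio was 0.60 by counts scaled to depth and 1.41 in the FASTQ-derived table. Ciita, the coactivator of class II genes, had 0.34 and 0.32 TPM. Of 7 other class II genes, H2-Ea-ps and the peptide exchange factor chain H2-DMa were expressed, the latter at 1.44 and 1.52 TPM. H2-DMb1, the chain that pairs with H2-DMa, had 1.10 and 0.97 TPM.

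Lysosomal enzymes and the inhibitor cystatin C were mostly higher than Ctss. All 10 were expressed, led by cathepsin D (Ctsd) at 394 and 339 TPM, cystatin C (Cst3) at 349 and 315 TPM and cathepsin B (Ctsb) at 154 and 128 TPM. Most cells make these. Their median log2 ratio was -0.02. Of 5 costimulation genes, Icosl, at 2.68 and 2.34 TPM, and Cd274, the ligand PD-L1, at 1.31 and 1.30 TPM, were expressed, while Cd40, Cd80 and Cd86 had means of 0.81, 0.18 and 0.31 TPM.

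Of 30 other macrophage genes 14 were expressed, led by the lipid carrier Apoe at 80.9 and 75.0 TPM, the scavenger receptor Stab1 at 21.6 and 18.1 TPM and the chemokine Pf4 at 11.4 and 8.88 TPM. In the FASTQ-derived table Stab1 was lower, at 11.8 and 10.6 TPM. Apoe and Stab1 are also made by other cell types. The median log2 ratio of the 16 compared was -0.06. Tlr4, the receptor for lipopolysaccharide, was the farthest apart of these, at 11.1 and 5.14 TPM, a centred ratio of -0.91, or -1.09 without centring. Of 12 ligands for macrophages 5 were expressed: the list was led by Gas6, a bridge to dying cells, at 41.4 and 38.3 TPM, Csf1 at 18.9 and 21.7 TPM, and the chemokine Ccl6 at 3.75 and 1.66 TPM. Csf1r stood at 0.50 and 0.40 times its ligand Csf1. The chemokine Ccl9 had 3.50 and 0.57 TPM, a centred log2 ratio of -2.24 that was -0.99 by counts scaled to depth and centred. As a share of all counts, without centring, Ccl9 in replicate 2 stood at 0.46 times replicate 1. On coding transcripts it had 0.81 and 0.47 TPM.

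Among 12 other complement genes 8 were expressed. C3, the central component of the cascade, had 24.2 and 31.1 TPM, and the C1 inhibitor Serping1 21.5 and 22.4 TPM. C3 thus exceeded the C1q chains, with non-overlapping intervals between the animals and a higher value in replicate 2, at 0.54. Cfb, of the alternative pathway, had 0.80 and 1.57 TPM and a log2 ratio of 1.07, on 64.0 and 104 counts, and was under 2-fold without centring, at 0.89. Over all 9 lists 74 genes were compared. By centred ratio H2-Q6, H2-Q7, Nlrc5 and Cfb were 2-fold or more higher in replicate 2 and Ccl9 lower. The intervals of Nlrc5 and Cfb overlapped between the animals, and those of H2-Q6, H2-Q7 and Ccl9 did not. Of all compared genes 0.707% passed 2-fold in each direction.

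**Figure D4:**
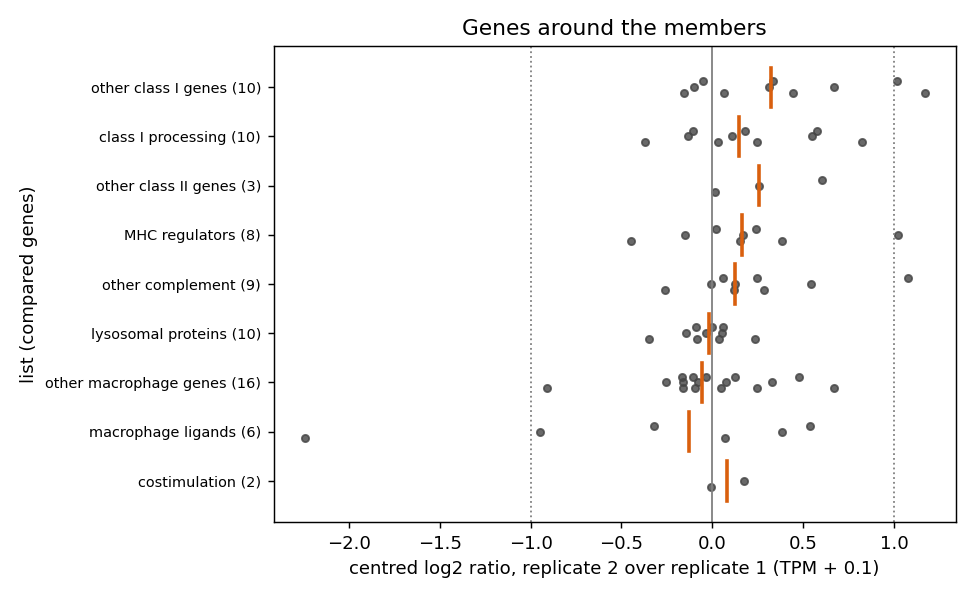
Centred log2 ratio of replicate 2 over replicate 1 for the compared genes of each of 9 lists (number in brackets), with the list median as an orange bar and dotted lines at 2-fold. Other class I genes have a median of 0.32, with H2-Q6 and H2-Q7 past the right line, while other macrophage genes centre near 0 and Ccl9 lies far left at -2.24.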

How the data were processed

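Total RNA libraries of 2 hearts were made with a directional kit, per the labels' protocols, each from 300 ng of RNA plus ERCC spike-ins. The deposited description files name mm10 as assembly and GENCODE M21 as annotation. Aligner and quantification tools: not given in the sources used here. Per the file headers, the deposited gene table and alignment-derived transcript table hold expected counts and TPM, and the FASTQ-derived transcript table holds estimated counts and TPM. Each deposited TPM column sums to 1000000 over all features. The deposited gene table also holds a posterior mean TPM and credibility bounds. FASTQ-derived depth was 43782858 and 41468698 estimated counts.

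Genes were matched by symbol and identifier. Expressed means at least 1 TPM in both animals. Genes with a mean of at least 1 TPM and 20 or more expected counts, summed over the libraries, were compared between the animals on log2(TPM + 0.1), centred on the median of all compared genes, with a 2-fold threshold. Such ratios understate differences of low genes. Ratios by counts scaled to depth and from the FASTQ-derived table were centred on their own medians over the same genes. The tables were compared on the same scale for genes past the same kind of filter. Shared words were counted over all 31-base stretches of the annotated transcripts. The count ratio of Fcgr3 has an exact 95% binomial interval. Intervals cover counting error only, since reads that carry no molecular identifier need not be independent molecules. The named genes are all 31 members, the 3 highest and any 2-fold different genes of each list, and all genes of lists of 6 or fewer; Psmb8, Psmb9, Psmb10, Ciita, Fcgr2b, Lyz1, Tlr4, Pdia3, Erap1 and Tapbpl were named after their values were seen. Of the listed genes 2 are not reported here by name. The 31 genes and all lists were chosen with earlier results of these data known. Sequences are those of RefSeq, GRCm38.p6. Python 3.11.15, pandas 2.3.3, numpy 2.4.6, scipy 1.17.1 and matplotlib 3.10.9 were used.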

Additional observations from a re-analysis of the deposited data

How the results depend on the processing

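Of 42 alternatives for 7 results, 35 left the value within 1.5 times a count, within 1 SD of a level or within 0.1 of a log2 median, 6 moved it and 1 reversed it. At 5 TPM the expressed genes fell from 26 to 15 and those of the 9 lists from 68 to 37. The median level of 4.77 TPM became 7.59 TPM over genes of 1 TPM or more, and 3.27 TPM over protein-coding transcripts only, an alternative added after the data had been seen. Without centring, 1 gene, Fcgr3, was 2-fold apart between the animals instead of 0, and the median log2 ratio of 0.06 turned to -0.12, as this setting leaves in the shift of all genes. At 1.5-fold 2 genes were apart, against 5.78% of all compared genes. With 1 animal left out, 26 to 27 genes were expressed, at a median of 4.58 to 4.96 TPM. On the same basis the tables were apart in 0 genes, 17 to 18 genes kept the same main transcript, and 73 to 75 list genes were expressed. The genes under 1 TPM rest on few counts, 13 at the least. No paired analysis was possible because both libraries belong to 1 group.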
